A study of Mus musculus with 2 samples.

Results

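The imprinted growth genes are mouse genes that are read mainly from 1 parental copy and whose products raise or restrain fetal growth. They were chosen by name, with earlier results of these data known, as the non-control probes that could be named for 10 listed genes. Igf2, Dlk1, Mest, Peg3, Plagl1 and Ndn are expressed from the paternal copy, and H19, Meg3, Cdkn1c and Grb10 from the maternal copy in most tissues. Probes were named through the transcript accession that the array design gives, which found 18 probes for 9 of the 10 genes, out of 39420 probes and 20655 named genes. No accession in the gene table led from H19 to a probe, so H19 has no value here. A probe for it may be among the 12191 probes whose accession the table does not hold. The array reads total RNA and does not tell the parental copies apart.

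The cells were blood cells of mouse fetal liver at E13.5 that carried SoNar, a genetically encoded sensor of the cytosolic NADH and NAD+ balance. Flow sorting on the fluorescence ratio F405/F488 gave a SoNar-high group and a SoNar-low group, and the question is which RNAs differ with the sensor state. Each group is 1 sample on 1 array (Cy3, 1 colour), labelled C57BL/6 for SoNar-high and C57BL for SoNar-low, and the labels used here do not say how many embryos each holds or what drives the sensor. With 1 array per group there is no replicate error, no p-value and no test, and a difference of the conditions cannot be told apart from a difference of these 2 samples. The share of the 43020 non-control spots that stood well above background was 49.4% for SoNar-high and 42.4% for SoNar-low. Beside blood cell markers, 8 of 11 hepatoblast markers and 6 of 8 endothelial markers were measured on both arrays.

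Imprinting is set by DNA methylation laid down in the germ line, which leaves 1 parental copy of a gene silent in the offspring. Paternally expressed genes often favour growth and maternally expressed genes often restrain it. Igf2 is a fetal growth factor, Dlk1 a transmembrane protein with EGF-like repeats that is also a surface marker of hepatoblasts, Cdkn1c a cyclin-dependent kinase inhibitor and Grb10 an adaptor that damps insulin and IGF receptor signalling. Plagl1 is a zinc finger transcription factor, Mest a protein of the alpha/beta hydrolase fold family, Peg3 a zinc finger protein, Ndn a MAGE family protein, and H19 and Meg3 are long non-coding RNAs.

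The stretches before the start sites of 3 members are shown because Mest and Plagl1 were the members with differences past 2-fold, and Dlk1 was the paternally expressed member with the smallest measured difference. Each is the 250 bases upstream of an annotated start (RefSeq, GRCm38.p6), read 5′ to 3′ on the gene's strand. Capitals mark TGCCGC on either strand (GCGGCA on the strand shown), the letters that the imprint-keeping protein ZFP57 reads when methylated. The Mest starts are the first and the second of 3 in the table, at chr6:30733256-30733505 and chr6:30737800-30738049 (both plus strand). Plagl1 is at chr10:13090582-13090831 and Dlk1 at chr12:109452573-109452822 (both plus strand).
Mest, first start: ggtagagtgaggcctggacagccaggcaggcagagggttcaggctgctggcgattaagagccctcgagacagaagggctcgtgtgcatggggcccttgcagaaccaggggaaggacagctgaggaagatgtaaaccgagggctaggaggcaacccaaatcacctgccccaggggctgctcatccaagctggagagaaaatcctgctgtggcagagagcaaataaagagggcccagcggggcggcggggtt
Mest, second start: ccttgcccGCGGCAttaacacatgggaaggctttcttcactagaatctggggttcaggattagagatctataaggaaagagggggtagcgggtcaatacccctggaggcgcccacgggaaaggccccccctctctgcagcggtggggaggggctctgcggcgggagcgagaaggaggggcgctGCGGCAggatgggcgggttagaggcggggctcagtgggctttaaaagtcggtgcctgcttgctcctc
Plagl1: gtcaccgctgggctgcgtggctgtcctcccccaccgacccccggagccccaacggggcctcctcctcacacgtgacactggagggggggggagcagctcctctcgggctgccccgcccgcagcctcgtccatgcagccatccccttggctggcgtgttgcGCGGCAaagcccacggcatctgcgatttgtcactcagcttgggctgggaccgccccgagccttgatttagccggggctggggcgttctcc
Dlk1: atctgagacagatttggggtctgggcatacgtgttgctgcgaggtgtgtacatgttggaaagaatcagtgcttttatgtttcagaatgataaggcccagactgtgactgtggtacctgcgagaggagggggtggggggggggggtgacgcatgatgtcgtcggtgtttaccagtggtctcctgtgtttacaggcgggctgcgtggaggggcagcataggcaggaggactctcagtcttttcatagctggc

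The second Mest stretch held 2 matches of TGCCGC and the Plagl1 stretch 1, while the first Mest stretch and the Dlk1 stretch held none. The third Mest start lies so close to the second that it shares both matches. Over the 15 stretches listed for 8 of the members, 4 held a match, the remaining one being the first start of Meg3. No stretch was listed for H19 or for Cdkn1c, the measured maternally expressed member. Whether matches go with the differences was not tested. Of all 32851 stretches of the same length in the table, 8.68% held one. The second Mest stretch has 14 CG dinucleotides and the Plagl1 stretch 19, against 8 for Dlk1, 7 for the first Mest start and a median of 6 over all stretches. A GATA motif (AGATAA, either strand, in 9.99% of all stretches) and a YY1 motif (GCCATNTT, either strand, in 3.91%) were in none of the 15. No stretch in capitals belongs to more than 1 of the 3 motifs. These matches describe letters in a window and no methylation or binding was measured.

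Mest and Plagl1 RNA was higher on the SoNar-high array, by 4.16-fold and 2.76-fold, and Cdkn1c (1.94-fold) and Dlk1 (1.37-fold) differed by less than 2-fold in the same direction. Igf2, Peg3 and Grb10 were not well above background on either array, and Meg3 and Ndn were so only on the SoNar-high array. A gene counted as measured if a probe was well above background and unsaturated on both arrays, which held for 4 of the 9 members and for 10223 of all genes. A difference is the log2 value for SoNar-high less that for SoNar-low, with each array first set to its own 75th percentile (186.5 units of processed signal for SoNar-high, 222.2 for SoNar-low), so that a positive value is higher in SoNar-high cells. In these bulk samples, more cells that express a gene and more RNA of it per cell cannot be told apart.

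**Figure D1:**
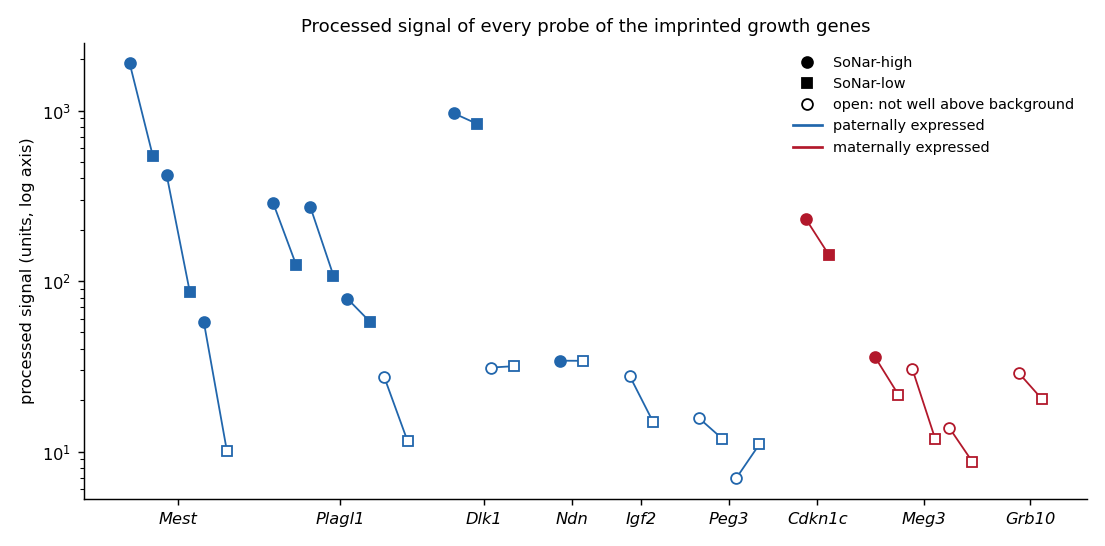
Processed signal of each of the 18 probes (log axis, in scanner units) on the SoNar-high array (circles) and the SoNar-low array (squares), before scaling, with open symbols for probes not well above background. Each line joins 1 probe, and only values of the same probe can be compared. The 2 brighter Mest probes fall steeply from SoNar-high to SoNar-low, while all Igf2, Peg3 and Grb10 symbols are open.

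The brightest probe of Mest was printed 10 times. On the SoNar-high array its 10 spots lay between 1737 and 2120 units of processed signal (median 1885), and on the SoNar-low array between 441.8 and 717.9 (median 502). The lowest SoNar-high spot was above the highest SoNar-low spot. The difference was 2.06 (log2), with an SD of 0.21 between the 10 spots and single spots between 1.76 and 2.38. That SD covers spot-to-spot error within these arrays and no difference between embryos, sorts or labellings. A further Mest probe had 416.9 units on SoNar-high and 85.88 on SoNar-low, a difference of 2.53 with an error of 0.26 by the scanner software's error model. The remaining Mest probe was well above background only on SoNar-high (57.7 units against 10.05). That makes it at least 1.85-fold higher by processed signal, and at least 1.37-fold with normexp background correction. The Mest difference was the 59th largest positive one of 10223 genes.

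Plagl1, the zinc finger factor, was measured by 3 probes. Its brightest probe had 286.1 units on SoNar-high and 123.4 on SoNar-low, a difference of 1.47 with an error of 0.25. The next probe had 272.8 against 107.7 units, a difference of 1.59 with an error of 0.24. The third had 78.87 against 57.3 units and a difference of 0.71 with an error of 0.33, under 2-fold. All 3 were higher on SoNar-high, and the third differed from the others by more than its error. The remaining Plagl1 probe was not well above background on either array (27.24 and 11.54 units). By its brightest probe Plagl1 ranked 196th of 10223 genes from the most positive.

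Cdkn1c, the cell cycle inhibitor and the measured maternally expressed member, had 232.1 units on SoNar-high and 142.5 on SoNar-low. The difference of 0.96, with an error of 0.22, lay just under the 2-fold size. It lay just over it when arrays were set to the 75th percentile (1.13) or the median (1.01) of probes well above background on both arrays. With normexp background correction it was 0.57. Its relative Cdkn1a was lower on SoNar-high (-0.39, and between -0.55 and -0.20 over the settings run). Cdkn1b was near 0 (-0.04), and its sign depended on the setting (-0.06 to 0.16).

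Dlk1 had 964.2 units on SoNar-high and 836.6 on SoNar-low by 1 probe, a difference of 0.46 with an error of 0.2. Its other probe was near background on both arrays (31.08 and 31.66 units). The difference was positive under the 10 alternatives that gave it a value, between 0.25 and 0.67. The ranks of Cdkn1c and Dlk1 among the 10223 genes were 608 and 1902.

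**Figure D2:**
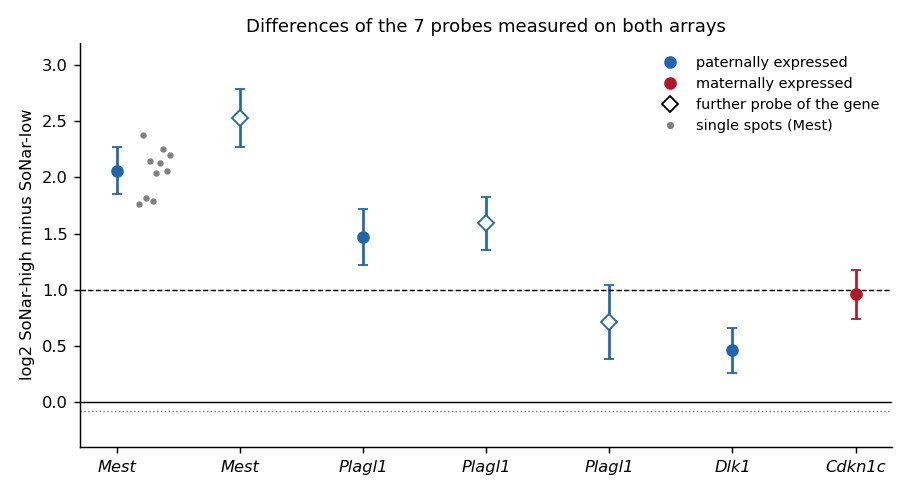
Difference (log2 SoNar-high minus SoNar-low) of the 7 member probes measured on both arrays, with bars of 1 error by the scanner software's error model, grey points for the 10 single Mest spots, a dashed line at 2-fold and a dotted line at the median of all genes (-0.08). The 2 Mest probes and 2 of 3 Plagl1 probes lie above 2-fold, and Cdkn1c sits at 0.96.

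The other members gave bounds or no value. Meg3, the maternally expressed RNA next to Dlk1, had 35.7 units on SoNar-high and 21.58 on SoNar-low by its brightest probe, and was at least 1.15-fold higher. Its further probes were not well above background (30.66 against 11.79 and 13.79 against 8.707 units). Ndn had 34.09 units against 34.05, nearly equal before scaling, and was at least 1.09-fold higher after it. With normexp background correction the bounds were 1.14-fold for Meg3 and 1.03-fold for Ndn. These bounds are small and approximate, since the dim level they are set against is no fixed limit of detection. On SoNar-high only, 1620 genes were well above background, against 152 on SoNar-low only. Of these, 202 (12.5%) and 34 had bounds of at least 2-fold. The bounds of Meg3 and Ndn are not among them.

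Igf2 was at 27.71 units on SoNar-high and 14.99 on SoNar-low by its single probe. Well above background is a scanner flag of each spot and not a cut at a fixed level. The dimmest probe that counted as such had 30.2 units for SoNar-high and 37.1 for SoNar-low, though some brighter probes did not count. Igf2 lay below these values and was not well above background on either array. The hepatoblast markers Afp (5215 and 2319 units) and Alb (3324 and 1094) were measured on both. With 1 probe, low Igf2 RNA cannot be told apart from a probe that reads it poorly. Peg3 (15.66 and 11.87 units by its brighter probe) and Grb10 (28.92 and 20.34) were likewise not well above background, so no fold is given for these 3 genes.

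Of the 4 measured members, 2 were higher by 2-fold or more and none was lower by as much. Among all 10223 measured genes, 5.28% were higher and 4.44% lower by that size. All 4 differences were above 0, as were those of 44.2% of all genes. The median of the measured members was 1.21, against -0.08 over all genes. Because the list was chosen with earlier results of these data known, these shares and medians are descriptive only. The split of all genes into 540 higher and 454 lower depends on the scaling, with 817 and 227 when each array was set to the 75th percentile of the probes detected on both (median of all genes 0.10), and 649 and 347 after a loess fit.

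**Figure D3:**
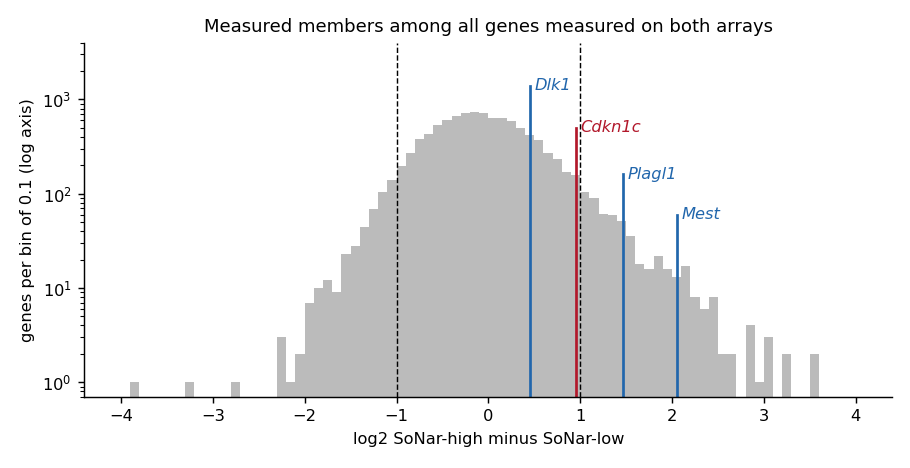
Number of genes (log axis) by difference (log2 SoNar-high minus SoNar-low, bins of 0.1) over the 10223 genes measured on both arrays, with coloured lines at the measured members (blue paternally, red maternally expressed; line heights carry no value) and dashed lines at 2-fold in each direction. Mest (2.06) and Plagl1 (1.47) lie past the upper 2-fold line.

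Paternally expressed members had a median difference of 1.47 over 3 measured genes, and the maternally expressed side rests on Cdkn1c alone (0.96). The gap between the 2 is 0.51, which is Plagl1 minus Cdkn1c, with a combined error of 0.33. The gap was thus 1.5 times its error, from 1 probe each. The third Plagl1 probe (0.71) and Dlk1 (0.46) lay below Cdkn1c, so the groups overlap. When probes of any brightness were kept, which brings in values at background, the gap was -0.06. In the order Mest, Plagl1, Cdkn1c and Dlk1, neighbours differed by 0.59, 0.51 and 0.50, each under 2 times its combined error (0.33, 0.33 and 0.30). For Mest, the error is the mean of its single spots' errors and was not lowered for averaging over 10 spots. Mest was above Cdkn1c by 1.1 (combined error 0.30) and Dlk1 by 1.60 (0.29), and Plagl1 was above Dlk1 by 1.01 (0.32).

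**Figure D4:**
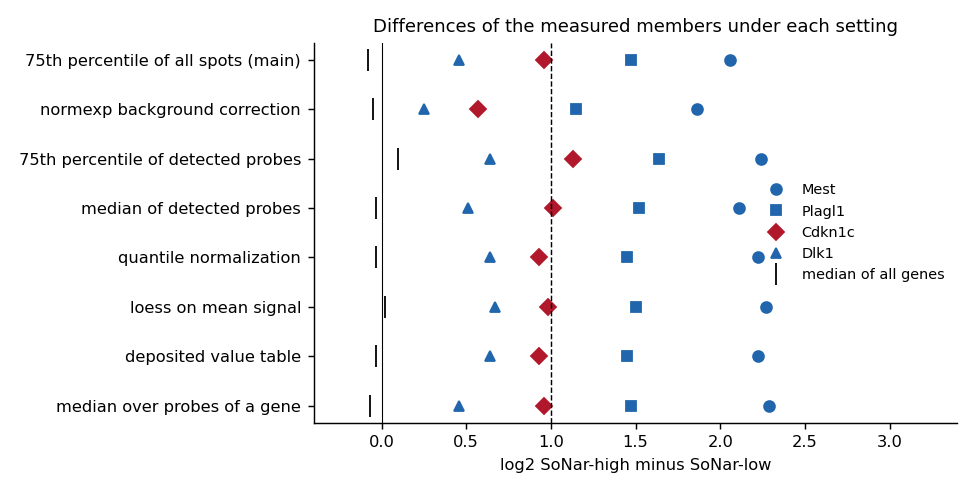
Difference (log2 SoNar-high minus SoNar-low) of the 4 measured members under the main scaling and 7 alternatives, with a vertical tick at the median of all genes and a dashed line at 2-fold. Mest and Plagl1 stay past 2-fold in all 8, and Cdkn1c crosses the line under 2 of them.

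Other imprinted genes did not reach 2-fold. Of 37 listed, 36 had a probe and 15 were measured on both arrays, with 10 above 0, 5 below 0 and a median of 0.28, by brightest probes. H13 and Gnas count as below 0 (-0.07 and -0.03) but had further probes of up to 0.92 and 0.38. Airn, a paternally expressed non-coding RNA that overlaps Igf2r, had the largest brightest-probe difference under the main scaling, 0.87 (106.8 against 69.72 units). Airn was past 2-fold only with the 75th percentile of detected probes (1.04). Dio3, the deiodinase gene of the Dlk1 and Meg3 cluster, had 0.74 (76.13 against 54.39 units). Igf2r, the maternally expressed receptor that clears Igf2, had 0.62 (754.6 against 583.4 units). It was ahead of Airn with quantile normalization and the deposited table (0.78 against 0.71 in both) and with loess (0.82 against 0.77). In the main scaling Ube3a, a ubiquitin ligase, had 0.50. The most negative values belonged to Mcts2 (-0.35) and Ppp1r9a (-0.24). The 7 measured genes listed as paternally expressed had a median of 0.37 and the 8 listed as maternally expressed 0.18. Which copy these cells read was not measured, so these are labels of the list and not of the cells. A further 20 genes were not well above background on either array, among them Snrpn, Peg10, Rtl1, Nnat and Phlda2. Ascl2 was well above background only on SoNar-high. Its processed signal was 38.2 units there and 39.49 on SoNar-low. Its value of 1.15-fold higher arises only after scaling, is taken against that dim reading and is no firm lower limit.

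The IGF axis, the ligands, receptors, binding proteins and adaptors around Igf2, had 12 measured genes with a median of -0.02, of which 2 were higher and 1 was lower by 2-fold or more. The ligand Igf1 had 184.1 units on SoNar-high and 56.05 on SoNar-low, a difference of 1.97, or 1.13 after normexp. The binding protein Igfbp1, a liver product, had 162.7 against 68.02 units and a difference of 1.51, which was under 2-fold after normexp (0.88). The receptors Igf1r (0.18) and Insr (-0.23) differed little. The mRNA-binding protein Igf2bp2 had -1.15 by its brighter probe (151.1 against 400.6 units) and 0.51 by another, so its probes disagree in sign, and its relative Igf2bp1 had -0.48. The adaptor Gab1 was well above background only on SoNar-high and at least 2.06-fold higher. Among 10 family relatives of the members, Igf1 alone of 7 measured passed 2-fold, followed by the Ndn relatives Maged2 (0.73) and Maged1 (0.64) and the Plagl1 relative Plagl2 (0.31). The 7 had a median of 0.31.

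Markers of several cell types moved with the members. Hepatoblast markers had 6 of 8 measured genes past 2-fold upward, 2 more genes with bounds of that size, and a median of 1.90, with Fgg at 2.44 and Serpina1a at 2.09. Only Apoa1 of the 11 was not well above background on either array. The summed processed signal of the 8 was 14857 units on SoNar-high and 5855 on SoNar-low. Mesenchymal and stellate markers had 4 of 5 at least 2-fold higher (Sparc 2.33) and 1 lower (Pdgfrb -1.39), with sums of 2002 and 961 units, while Pdgfra, Des and Lum were not well above background. Endothelial markers had 4 of 6 higher (sums of 6351 and 4855 units), with Emcn not well above background. Cdh5 was at 3.07 (370.8 against 52.65 units). Pecam1 was near 0 (0.01), and Egfl7 was lower on SoNar-high (-0.31, 2604 against 3843 units).

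Blood cell markers moved in both directions. Macrophage markers had 7 of 8 measured genes at least 2-fold higher (18698 and 8515 units in sum, Marco at 3.59) and a median of 2.98. Erythroid markers had 7 of 8 higher (14426 and 6545 units in sum, Epb42 at 1.93) and a median of 1.43. Stem and progenitor markers had 3 of 8 past 2-fold downward and none upward (9092 and 19748 units in sum, Angpt1 at -1.90), with a median of -0.92 and Mecom not well above background. Procr of this list was well above background only on SoNar-high (53.63 against 49.55 units). Its ratio after scaling was 1.29-fold higher, taken against that dim reading and so no firm lower limit. The values of Mest (2.06) and Plagl1 (1.47) lie within the span of the hepatoblast list (0.44 to 2.44), the mesenchymal list (-1.39 to 2.33), the endothelial list (-0.31 to 3.07) and the macrophage list (0.18 to 3.59). In the erythroid list (0.95 to 1.93), Plagl1 lies within the span and Mest above it. The part of a different mix of cells in the members' differences was not tested.

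**Figure D5:**
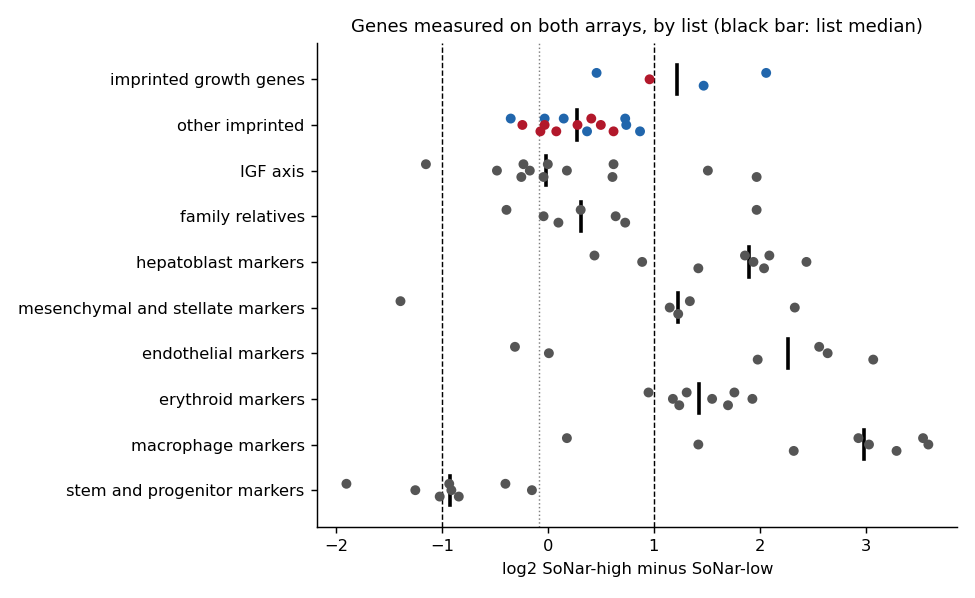
Difference (log2 SoNar-high minus SoNar-low) of each gene measured on both arrays, by list, with a black bar at each list's median, dashed lines at 2-fold and a dotted line at the median of all genes (-0.08). Blue and red points are genes listed as paternally and maternally expressed, with no measure of the copy read in these cells. The median of the imprinted growth genes (1.21) lies to the right of that of the other imprinted genes (0.28), whose points overlap with theirs, and the stem and progenitor markers lie left of 0.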

How the data were processed

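The authors deposited spot intensities (processed signal and its error, median signal, local background) written by Agilent Feature Extraction, whose processed signal has background subtracted, per the file headers. These headers name version 11.0.1.1 and the submitters' processing notes 9.1. The deposited value table holds log2 values of unstated normalization and served as an alternative. Scanner flags of saturation, outliers and signal above background were deposited by the authors too (per the file headers).

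Outlier spots (225 on SoNar-high, 135 on SoNar-low) were left out, log2 processed intensity was set to each array's 75th percentile, and spots of a probe were averaged. A gene was represented by the brightest of its measured probes. Errors of single probes combine the scanner software's errors of both arrays. A bound sets the bright value against the dim probe's value, raised to that of the dimmest detected probe where it was lower. Where the dim value was already higher, as for Ascl2 and Procr, the bound is the plain scaled ratio. Detection is a scanner flag of each spot and some probes brighter than the dimmest detected one were not flagged, so bounds are approximate. Accessions were matched, without versions, to a RefSeq table of GRCm38.p6 (27229 probes named), used for names and gene order because the array design refers to mm9. The counting rule was tested on simulated data. Alternatives used limma 3.58.1 (normexp, offset 50) on the median spot signal, statsmodels 0.14.6 (loess, span 0.3) and others given below.

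Groups came from the source labels. The members and lists were chosen with earlier results of these data known. Named genes are all members and, of each other list, up to 2 with the largest positive and 2 with the largest negative difference, plus dim genes with bounds of at least 2-fold, some left out for length. Other genes were named after their values were seen.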

Additional observations from a re-analysis of the deposited data

How the results depend on the processing

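No paired analysis was possible because each group is 1 array, and for the same reason no replicate could be left out. A value counted as moved past 0.148, the typical (median) spot-to-spot SD of a log2 difference among 213 probes printed 10 times, and a count past 1.5 times. Mest (1.86 to 2.29) and Plagl1 (1.15 to 1.64) stayed past 2-fold under every alternative scaling, filter and background correction run. At a 3-fold threshold 1 member passed (Mest), with 20 marker genes in place of 32 and 194 of all genes in place of 994.

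With normexp the medians were 0.86 for the measured members, 1.15 for the paternally and 0.57 for the maternally expressed ones and 0.12 for other imprinted genes, and 508 genes were past 2-fold. The Plagl1 value is then that of its second probe, which became the brighter one. With the 75th percentile of detected probes these medians were 1.39, 1.64, 1.13 and 0.46. The IGF axis median of -0.02 became 0.16 there, with quantile normalization and with the deposited table, and 0.19 with loess. The family relatives median became 0.48, 0.49 (quantile and deposited table) and 0.52 (loess). Without the filter on dim probes 9 members had a value, with a median of 0.96 (paternal 0.90, gap to maternal -0.06), the relatives were at 0.64 and 3135 genes were past 2-fold (2476 higher and 659 lower). At a minimum processed signal of 100, 643 genes and 21 marker genes were past 2-fold, and the medians of other imprinted genes and relatives were 0.12 and 0.47. The cause of these shifts was not tested. Signal over background limits the dim members.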

Other observations

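The protein-coding genes next to the members, 5 on each side in the order of the gene table, were looked up after the members' values were seen. For Mest, 2 of its 10 neighbours were measured on both arrays, and neither came near its difference of 2.06. They were Copg2, the adjacent coat protein gene (0.37, 280.4 against 259.3 units), and Mkln1 (0.03). For Cdkn1c (0.96), the 7 measured neighbours lay between 0.04 and 0.42, including the imprinted Slc22a18 at 0.41. For Plagl1, 8 were measured, with a median of 0.00 and a range of -0.66 (Ltv1) to 1.52. The highest was Stx11, a syntaxin of blood cells (875.4 against 363.6 units).

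Around Dlk1, 6 neighbours were measured and none was past 2-fold, with Ppp2r5c at -0.76 and Dio3 at 0.74. Around Igf2, Th, the tyrosine hydroxylase gene, was the only measured neighbour of 8 past 2-fold, at 1.68 (177.9 against 66.12 units), followed by the insulin gene Ins2 at 0.90 (102.1 against 65.4 units). Tnni2, a troponin gene on the far side of H19, had -0.97 (375.7 against 874.6 units). The 4 measured neighbours of Grb10 were all below 0, between -0.84 (Ddc) and -0.31 (Ikzf1, a lymphoid transcription factor). Strand and overlap were not examined for these probes.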
